A study of Mus musculus with 8 samples.

Results

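The genes described here are 10 immediate early genes, chosen by name and not by any measured value: the orphan nuclear receptors Nr4a1, Nr4a2 and Nr4a3, the zinc-finger transcription factors Egr1, Egr2 and Egr3, the AP-1 subunits Fos, Fosb and Junb, and the phosphatase gene Dusp1. All 10 were found among the 55367 gene symbols of each of the 4 single-cell RNA tables. The study profiled T cells of the mouse meninges, sorted for CD45, CD3 and CD4 and with paired T-cell receptor and hashtag libraries, and hippocampal cells sorted to lack CD45 and Thy1. Meningeal replicate 1 came from Foxp3-GFP animals, in which a green reporter marks Foxp3, and replicate 2 from B6.WT animals, with no treatment listed for either. Each hippocampal library is a pool of 2 mice that received diphtheria toxin, DTRneg from Foxp3-DTR- littermates and DTRpos from Foxp3-DTR+ mice. In DTRpos animals the toxin receptor is expressed with Foxp3, so the toxin is used to remove regulatory T cells. All animals were perfused with cold PBS and the tissues digested before sorting.

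Immediate early genes are transcribed within minutes of a signal because the transcription factors that switch them on are already in the cell. Serum response factor at CArG boxes and CREB at cAMP response elements are the classic activators. In T cells, antigen receptor signalling induces the Nr4a and Egr families, and Nr4a1 in particular is used as a reporter of receptor signalling. Members of the AP-1 family respond more broadly to growth factors, calcium and stress, and in brain tissue Fos, Egr1 and Junb mark recent activity of neurons and glia. Handling and enzymatic digestion of live tissue are also known to induce many of these genes.

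The stretches upstream of 4 members are shown because they carry the cAMP or serum response motifs through which these genes are known to be switched on together. They come from RefSeq (mouse build GRCm38.p6), read 5′ to 3′ on the gene's own strand, with the motifs in capitals. A window of 250 bases before the annotated start was listed for 8 of the 10 members, and not for Egr1 and Egr3. The Fos stretch (chr12:85473640-85473889, plus strand) holds the cAMP response core TGACGT at position -66, counted from the annotated start. The Dusp1 stretch (chr17:26508573-26508722, minus strand) holds TGACGT at -191 and the full palindrome TGACGTCA at -143, the latter containing the shorter motif on both strands. The Nr4a3 stretch (chr4:48045055-48045144, plus strand) holds TGACGT at -231 and -205. The Egr2 stretch (chr10:67537316-67537565, plus strand) holds a CArG box at -72. This start is 1 of 5 listed for Egr2, of which 4 have a CArG box in their window, and lies within the span of the gene but overlaps no annotated exon.
Fos: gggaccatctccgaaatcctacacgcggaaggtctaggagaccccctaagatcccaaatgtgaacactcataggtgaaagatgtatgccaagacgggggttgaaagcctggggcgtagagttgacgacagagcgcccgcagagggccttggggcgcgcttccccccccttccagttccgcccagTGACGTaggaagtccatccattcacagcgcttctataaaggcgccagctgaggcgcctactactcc
Dusp1: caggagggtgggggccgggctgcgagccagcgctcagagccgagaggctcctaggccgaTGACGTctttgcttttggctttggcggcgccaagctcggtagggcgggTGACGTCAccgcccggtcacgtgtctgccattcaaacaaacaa
Nr4a3: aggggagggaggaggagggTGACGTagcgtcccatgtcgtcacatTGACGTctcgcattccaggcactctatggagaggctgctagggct
Egr2: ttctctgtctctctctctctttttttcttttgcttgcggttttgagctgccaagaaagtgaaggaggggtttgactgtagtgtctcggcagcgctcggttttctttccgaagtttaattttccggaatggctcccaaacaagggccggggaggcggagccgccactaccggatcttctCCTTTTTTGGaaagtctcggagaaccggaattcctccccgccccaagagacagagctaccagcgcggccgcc

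Across all 32851 windows of 250 bases in the table, searched on both strands, TGACGT stood in 6.47%, TGACGTCA in 1.55% and a CArG box in 1.47%. The EGR motif GCGNGGGCG, present in 4.70% of windows, was found for Nr4a1 at -60, Nr4a2 at -74 and Fosb at -50. The AP-1 motif TGANTCA (6.75% of windows) and the NBRE AAAGGTCA (1.34%), the site of Nr4a monomers, were found in no member's window. The Junb window held none of the motifs searched. These matches describe the letters of the windows and were not measured as binding.

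The 4 RNA libraries held 6548 to 33575 barcodes and 35814655 to 68830571 UMIs (unique molecular identifiers, 1 per captured RNA molecule). After filtering, 1485 T cells of meningeal replicate 1 and 3258 of replicate 2 were used. A UMI of Cd3e was found in 94.7% and 88.0% of them, but Cd3e is 1 of the genes by which they were chosen. Fewer of these cells had a UMI of genes outside the filter, with Cd4 in 45.6% and 29.5%, Trbc2 in 39.1% and 20.8%, and Ptprc in 82.4% and 72.0%. They were divided by marker UMIs into Foxp3-marked (107 and 420 cells), Tfh-marked by Sostdc1 or Il21 (25 and 32), Th1-marked by Tbx21 or Ifng (443 and 754), naive-marked by at least 2 markers of naive T cells, Ccr7 and Lef1 among them (103 and 158) and unmarked cells (807 and 1894). A missing UMI of a marker does not show that a cell lacks it, so unmarked cells may belong to any state. In the hippocampus 6 classes had at least 50 cells in both libraries: mature oligodendrocytes (3705 in DTRneg and 2621 in DTRpos), oligodendrocyte precursors (672 and 858), astrocytes (881 and 1011), endothelial cells (490 and 361), pericytes (183 and 150) and neuroblasts (176 and 134). Each class had UMIs of all 5 of its markers in both libraries and its own markers outweighed every other class's. The classes were set by these same markers, so this is no independent check of them. Foxp3 had 0 UMIs in either hippocampal library, so the depletion itself cannot be checked here. The 2 meningeal libraries shared 554 barcodes, 4 of them among the T cells used, and the 2 hippocampal ones shared 18. All levels below are a gene's UMIs per 1000000 UMIs of the summed cells (CPM), and intervals are exact 95% intervals that cover counting error only.

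A small set of cells in meningeal replicate 1 held much of the signal of several members. Of its T cells, 46 of 1485 (3.10%) drew at least 0.5% of their UMIs from 28 epithelial, mural, endothelial and fibroblast genes, against 6 of 3258 (0.184%) in replicate 2. These cells held 54.7% of all Fos UMIs of the replicate, 43.4% of Fosb, 41.1% of Egr1, 36.0% of Nr4a1 and 26.7% of Dusp1. The Fos, Fosb and Egr1 signal was therefore the most concentrated, whereas Junb (15.7%), Nr4a2 (15.6%), Egr2 (18.0%), Egr3 (10.9%) and Nr4a3 (5.56%) were less so. In replicate 2 the corresponding shares of the 10 members lay between 0 and 2.75%. Fos stood at 3611 CPM in the 46 cells and 248 CPM in all others, and in replicate 2 at 3090.2 and 375 CPM. The 46 cells also held 97.2% of the UMIs of Muc2, a mucin of goblet cells, and their Cd3e level was lower, at 311 against 1325 CPM. Shares of other tissue genes were smaller, such as 73.3% for Krt8 and 51.4% for Tagln. The remaining T cells of replicate 1 still held Krt8 at 90.1 CPM and Acta2 at 54.7 CPM, against 0 and 0.815 CPM in replicate 2. Leaving out the 46 cells therefore does not clear this RNA from replicate 1. Among them, 10 were Th1-marked, 2 naive-marked, 34 unmarked and none Foxp3- or Tfh-marked, so their removal shifts some states and not others. The limit and the gene list were set after the data were seen, and levels are given below without these cells unless stated. Their median was 3571 UMIs against 2929 in the other T cells, and 8.70% against 5.35% of all such cells had 2 or more T-cell receptor beta (TRB) chains. Whether they are doublets, free RNA or cells of another type was not tested.

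**Figure D1:**
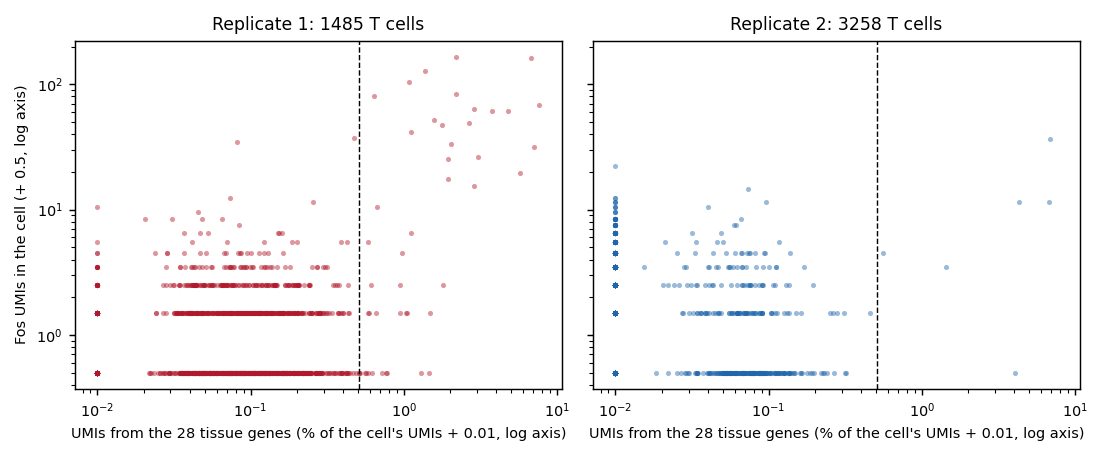
Fos UMIs per T cell (y axis, UMIs + 0.5, log scale) against the percent of its UMIs from the 28 tissue genes (x axis, percent + 0.01, log scale), 1 panel per meningeal replicate; the dashed line marks 0.5%. In replicate 1 the 46 cells right of the line include most cells with many Fos UMIs, and in replicate 2 only 6 cells lie there.

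Nr4a1, the orphan nuclear receptor that follows antigen receptor signalling, was higher in Foxp3-marked than in Th1-marked cells of both replicates. In replicate 1 it stood at 125 CPM in Foxp3-marked, 87.0 in Tfh-marked, 64.7 in Th1-marked, 37.1 in naive-marked and 41.8 in unmarked cells. In replicate 2 it stood at 96.7 CPM in Foxp3-marked, 229 in Tfh-marked, 49.6 in Th1-marked, 22.6 in naive-marked and 49.6 in unmarked cells. Naive-marked cells were the lowest in both replicates. With the 46 cells included, Nr4a1 in replicate 1 stood at 86.0 CPM in Th1-marked, 63.4 in naive-marked and 77.6 in unmarked cells. The high Tfh-marked value of replicate 2 rests on 23 UMIs, of which 78.3% came from 1 cell, and that of replicate 1 on 9 UMIs. The Foxp3-marked level exceeded the Th1-marked one by 0.95 and 0.96 on the log2 scale in replicates 1 and 2. Its closest relatives were scarcer and followed in part. Nr4a2 stood at 29.5 and 29.9 CPM in Foxp3-marked and 16.0 and 18.4 CPM in Th1-marked cells. Nr4a3, by contrast, differed in opposite directions: its CPM in Foxp3- and Th1-marked cells was 36.4 and 23.3 in replicate 1 but 34.5 and 39.8 in replicate 2. In naive-marked cells of replicate 2, Nr4a2 and Nr4a3 rested on 2 and 3 UMIs, so no order of states is read from them.

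The Egr genes, zinc-finger factors downstream of MAP kinase and calcium signals, were sparse in T cells, and their Tfh-marked levels split between the replicates. Egr1 in replicate 1 stood at 123 CPM in Foxp3-marked, 474 in Tfh-marked, 94.1 in Th1-marked, 79.9 in naive-marked and 64.7 in unmarked cells. In replicate 2 it stood at 106 CPM in Foxp3-marked, 59.8 in Tfh-marked, 98.7 in Th1-marked, 100.1 in naive-marked and 71.0 in unmarked cells. Tfh-marked cells were thus the highest of the states in replicate 1 and the lowest in replicate 2, and a single cell gave 42.9% of the 49 UMIs behind the high value. Counting the 46 cells too, Egr1 in replicate 1 stood at 138 CPM in Th1-marked, 92.5 in naive-marked and 141 in unmarked cells. Egr2, known in T cells for its part in anergy and in receptor-driven differentiation, showed the same split, at 155 CPM in Tfh-marked cells of replicate 1 (16 UMIs) and 9.97 CPM in replicate 2 (1 UMI). In the other states Egr2 lay between 3.23 and 18.4 CPM. Egr3 had 41 and 32 UMIs over the T cells of the replicates, and of 32 in Th1-marked cells of replicate 1 a single cell gave 46.9%. It was not detected in the 101 naive-marked cells of replicate 1 and had 2 UMIs in those of replicate 2.

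Among the AP-1 genes, Junb, a subunit that dimerises with Fos proteins, gave the most even pattern. It stood in replicate 1 at 1370.0 CPM in Foxp3-marked, 764 in Tfh-marked, 752 in Th1-marked, 968 in naive-marked and 844 in unmarked cells. In replicate 2 it stood at 1748 CPM in Foxp3-marked, 1436 in Tfh-marked, 1340.3 in Th1-marked, 1676 in naive-marked and 1606 in unmarked cells. The Foxp3-marked level was the highest of the states in both replicates, and the Th1- and Tfh-marked levels were the lowest pair. When the 46 cells were kept, Junb in replicate 1 stood at 817 CPM in Th1-marked, 954 in naive-marked and 978 in unmarked cells. Fos, the partner of Jun proteins in AP-1, in replicate 1 stood at 284 CPM in Foxp3-marked, 512 in Tfh-marked, 195 in Th1-marked, 279.7 in naive-marked and 259 in unmarked cells. In replicate 2 the same states stood at 422, 389, 330.3, 410.1 and 398 CPM, in that order. Th1-marked cells were the lowest in both replicates. If the 46 cells are counted, Fos in replicate 1 stood at 396 CPM in Th1-marked, 447 in naive-marked and 625 in unmarked cells. Foxp3-marked cells were then the lowest of replicate 1. In Tfh-marked cells of replicate 1 a single cell held 69.8% of the Fos UMIs and 68.4% of the Fosb UMIs. Fosb, a longer-lived relative of Fos, was higher in every state of replicate 1 (46.0 to 184 CPM) than in the same state of replicate 2 (16.1 to 59.8 CPM).

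Dusp1, the phosphatase that switches MAP kinases off again, was higher in Foxp3-marked than in Th1-marked cells of both replicates. Its levels in replicate 1 were 232 CPM in Foxp3-marked, 377 in Tfh-marked, 119 in Th1-marked, 119.9 in naive-marked and 149 in unmarked cells. In replicate 2 they were 620.3 CPM in Foxp3-marked, 449 in Tfh-marked, 371 in Th1-marked, 236 in naive-marked and 401 in unmarked cells. Over all cells, Dusp1 in replicate 1 stood at 156 CPM in Th1-marked, 116 in naive-marked and 206 in unmarked cells. Replicate 2 exceeded replicate 1 in every state, so levels are compared within replicates. The replicates also differ in strain, library and Cell Ranger version, which cannot be told apart.

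**Figure D2:**
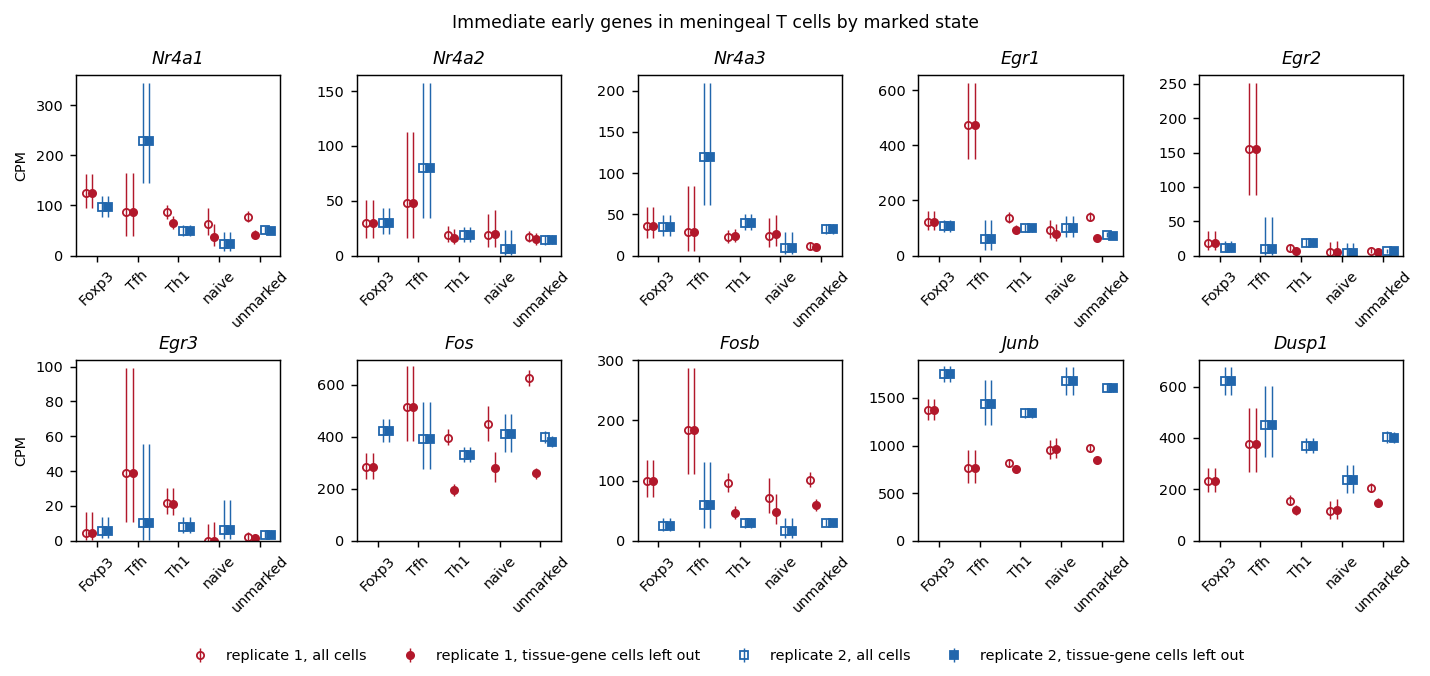
Level of each of the 10 genes (y axis, CPM) in the 5 T-cell states (x axis), with red circles for meningeal replicate 1 and blue squares for replicate 2; open symbols include all T cells, filled ones leave out the tissue-gene cells, and bars are exact 95% Poisson intervals. Foxp3-marked cells lie above Th1-marked cells in both replicates for Nr4a1, Junb and Dusp1, and the open and filled symbols of Fos part widely in replicate 1.

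The states were then tested across all genes with edgeR's quasi-likelihood test on the summed counts, with Benjamini-Hochberg adjustment over all genes tested. Without regard to replicate, none of the 10 members, all of which were tested, passed in Th1-marked against naive-marked (background 0.124% of 8034 genes), Tfh-marked against Th1-marked (0.0871%) or Foxp3-marked against Th1-marked cells (0.0124%). At an unadjusted p under 0.05 these comparisons called 718, 772 and 360 genes, among them 0, 2 (Nr4a2 and Egr2) and 0 members. DESeq2 called 140, 85 and 58 genes after adjustment, with no member among them. Since the states of a replicate share a library, a fit with the replicate as a block was also made. Junb was lower in Th1-marked than in naive-marked cells (background 4.34% called lower), by -0.45 (SE 0.11, adjusted p = 0.0053) as a log2 difference. Junb and Dusp1 were higher in Foxp3-marked than in Th1-marked cells (background 2.43% called higher), by 0.52 (SE 0.10, adjusted p = 0.0011) and 0.68 (SE 0.13, adjusted p = 0.0018). Egr2 passed in Tfh-marked against Th1-marked cells (background 1.13% called higher) at 2.38 (SE 0.64, adjusted p = 0.044), a call whose replicates disagree in sign.

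Leaving out the tissue-gene cells, a choice made after the data were seen, brought further members past the threshold in the blocked fit. In the unblocked fit none of the 10 passed, against 0.682%, 0.455% and 0.202% of all genes in the 3 comparisons, in the order above. In Foxp3-marked against Th1-marked cells, where 3.15% of 7913 genes were called higher, 4 members were called higher by edgeR's quasi-likelihood test and none lower. Dusp1 rose by 0.80 (SE 0.13, adjusted p = 1.3e-05), Junb by 0.59 (SE 0.10, adjusted p = 4.9e-05) and Nr4a1 by 0.90 (SE 0.20, adjusted p = 0.0018) on the log2 scale, and each was higher in both replicates. Fos rose by 0.42 (SE 0.12, adjusted p = 0.034) and was likewise higher in both, at 0.54 and 0.35. With the 46 cells kept, the Fos difference of replicate 1 was instead -0.48. The median difference of the 10 members was 0.50, with 9 above 0, against -0.0041 for all genes. In the unblocked fit of all cells it was 0.063, with 5 above 0, against -0.012 for all genes. In replicate 1, 17.0% of Foxp3-marked cells with a TRB chain had 2 or more, against 6.36% of Th1-marked cells, and in replicate 2 the shares were 8.62% and 10.1%. With cells of exactly 1 TRB chain, in the unblocked fit, the differences of Nr4a1, Junb and Dusp1 were 0.58, 0.43 and 0.55.

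In Th1-marked against naive-marked cells, where 4.44% of all genes were called lower without the tissue-gene cells, Fos and Junb fell and no member rose. Fos differed by -0.59 (SE 0.15, adjusted p = 0.0056) and Junb by -0.53 (SE 0.11, adjusted p = 0.00046) on the log2 scale in the blocked edgeR fit, with the same sign in both replicates. The median of the 10 members was 0.20, against 0.0065 for all genes. Nr4a1 went the other way, at 0.80 and 1.13 within the replicates, without passing (adjusted p = 0.28 by edgeR).

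In Tfh-marked against Th1-marked cells, where 1.52% of all genes were called higher, 5 members were called higher in the blocked edgeR fit without the tissue-gene cells. For Nr4a1 (1.37, SE 0.35, adjusted p = 0.013), Fos (0.71, SE 0.20, adjusted p = 0.038) and Fosb (1.61, SE 0.39, adjusted p = 0.0090) both replicates were higher. The interval of Nr4a1 in replicate 1 nevertheless reached below 0, at 0.43 (-0.74 to 1.41). So did those of Fos and Fosb in replicate 2, at 0.24 (-0.27 to 0.71) and 1.05 (-0.46 to 2.28), the latter on 6 Tfh-marked UMIs. For Egr1 (1.39, SE 0.32, adjusted p = 0.0055) and Egr2 (2.57, SE 0.63, adjusted p = 0.010) replicate 2 was lower, at -0.72 and -0.88. The median of the 10 members was 1.24, against -0.08 for all genes. The Tfh-marked state has 25 and 32 cells, and its levels rest on few of them, as given above for several of the genes.

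The companion genes were described with the same fit, the blocked edgeR fit without the tissue-gene cells. Of all 7913 genes tested in Foxp3-marked against Th1-marked cells, 249 were called higher and 172 lower. Of 23 other primary response genes tested in this comparison, 8 were higher and 1 was lower. Among the higher ones were Jun, 0.73 (adjusted p = 0.0015), the RNA-destabilising factor gene Zfp36, 1.22 (adjusted p = 1.5e-10), and the NF-kB inhibitor gene Nfkbia, 0.78 (adjusted p = 1.2e-07). Jund, Nfkbiz, Ppp1r15a, Gadd45b and Tnfaip3 were the others, and Dusp2, a phosphatase gene like Dusp1, was the lower one at -0.96 (adjusted p = 3.4e-08). Dusp1 and Dusp2 thus went opposite ways in this comparison. Of 9 heat shock genes tested, none passed, with 1 at an unadjusted p under 0.05. Of 16 T-cell receptor targets, 5 were higher, namely Cd69, Tnfrsf9, Tnfrsf4, Pdcd1 and Cd83, and 6 were lower, namely Cd40lg, Il2, Tnf, Ccl3, Ccl4 and Xcl1. The median differences of these lists were 0.42, -0.05 and -0.23. The lower targets encode cytokines, chemokines and the ligand of CD40. Th1-marked cells were themselves chosen in part by a UMI of the cytokine gene Ifng, and the part of this choice was not tested.

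In Th1-marked against naive-marked cells, 291 of all 7913 genes were called higher and 351 lower. The same lists gave 1 other primary response gene higher, Dusp2, and 4 lower, namely Jun, Zfp36, Socs3 and Ppp1r15a. No heat shock gene and 6 T-cell receptor targets passed, all higher: Bhlhe40, Tnf, Ccl3, Ccl4, Xcl1 and Nfkbid. Here too the Th1-marked cells were chosen by a UMI of Tbx21 or Ifng, which naive-marked cells lack. The part of this choice in the target calls, or of Il21 for the Tfh-marked cells, was not tested. The medians of the lists were -0.10, 0.09 and 0.87. In Tfh-marked against Th1-marked cells, 120 of all 7913 genes were called higher and 125 lower. Atf3, Nfkbiz and Nfkbia were higher and Dusp5 lower, and no heat shock gene passed. Of the targets, Nfatc1, Tnfrsf4, Il2, Pdcd1 and Cd83 were higher and Xcl1 lower. Here the medians were -0.20, -0.0019 and 0.48. At an unadjusted p under 0.05 stood 2 heat shock genes in each of these comparisons. The summed targets in all T cells stood at 848 and 891 CPM in naive-marked and 2385 and 2078 CPM in Th1-marked cells of the replicates. The summed heat shock genes lay between 2930.0 and 4099 CPM over all 10 sums. The 4 most abundant genes of each list were Nfkbia, Zfp36, Btg2 and Dusp2, the chaperone genes Hspa8, Hsp90aa1, Dnaja1 and Hspe1, and the targets Tnfrsf4, Cd69, Cd40lg and Ccl4. Btg2, an antiproliferative gene, stood in Foxp3-marked and Th1-marked cells at 323 and 342 CPM in replicate 1, and at 407 and 339.5 CPM in replicate 2. Hspa8 stood at 1781 and 1782 CPM in replicate 1 and 1967 and 2003 CPM in replicate 2.

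Within the T cells, the other Nr4a and the Egr genes accompanied Nr4a1 in both replicates, and Fos and Fosb in replicate 1 alone. Cells with a Nr4a1 UMI numbered 128 and 189 in replicates 1 and 2, against 1311 and 3063 without, and differed somewhat in depth (median 3268 against 2894 and 1844 against 1605 UMIs). These ratios compare cells of 1 library and were not tested between samples. Nr4a2 was higher in them by 2.62 and 2.57 on the log2 scale, and Nr4a3 by 2.50 and 2.54. Egr1 was higher by 1.91 and 2.07, Egr2 by 2.43 and 2.92, and Egr3 by 3.08 and 3.75. All 5 intervals lay above 0 in both replicates. The AP-1 genes were higher in replicate 1 and close to level in replicate 2. Fos differed by 0.94 and -0.20, Fosb by 1.56 and -0.06, and Junb by 1.02 and 0.21. Dusp1 was higher in both, at 0.73 and 0.50. With the 46 cells kept, Fos in replicate 1 stood 2.77 higher.

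The T-cell receptor targets differed more by a Nr4a1 UMI than by a Fos UMI. Their summed level was 4877 CPM in cells with a Nr4a1 UMI and 1506 CPM in cells without in replicate 1, and 3912 and 1578 CPM in replicate 2, differences of 1.70 and 1.31. The heat shock sum differed by 0.28 and 0.29. Among Th1-marked cells alone the targets differed by 2.37 and 2.02. When cells were instead divided by a Fos UMI (624 against 815 and 1071 against 2181 cells), the targets differed by 0.20 and -0.05, and Nr4a1 itself by 0.29 and 0.46. The splits are unlike, since 8.90% and 5.81% of the T cells had a Nr4a1 UMI but 43.4% and 32.9% a Fos UMI. No split of matched size was made. Fosb went with Fos, at 1.17 and 1.69. Divided by an Egr1 UMI (258 against 1181 and 324 against 2928 cells), Nr4a1 was higher by 1.71 and 1.93, and Egr2 by 2.87 and 2.11. Cells of at least 1000 UMIs were also thinned to that number, and the rest left out. The targets then differed by 2.17 and 1.25 between cells with and without a Nr4a1 UMI (46 against 1333 and 104 against 2791 cells). Between cells with and without a Fos UMI they then differed by 0.60 and 0.00.

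**Figure D3:**
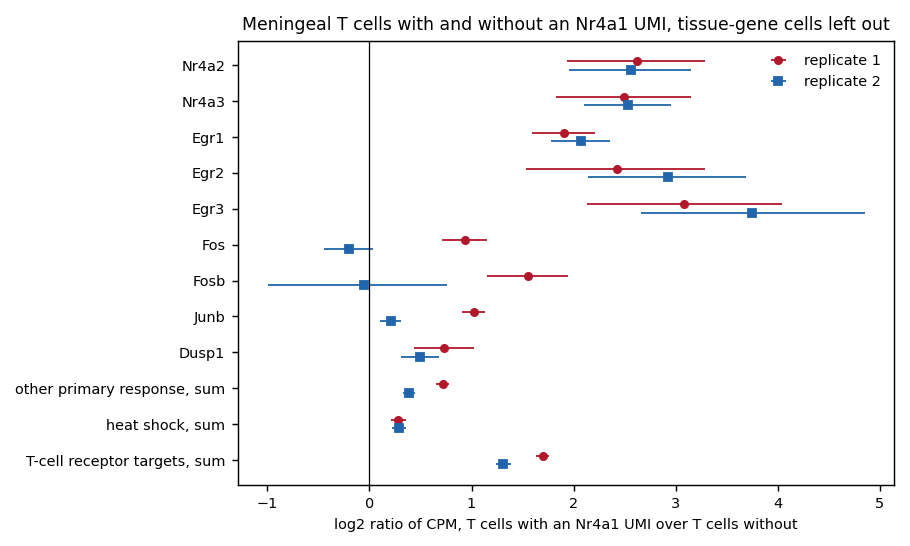
Log2 ratio of CPM between T cells with and without a Nr4a1 UMI (value axis) for the other 9 genes and for the summed other primary response, heat shock and T-cell receptor target lists, per meningeal replicate, tissue-gene cells left out, with 95% intervals from counting error. The Nr4a and Egr genes and the T-cell receptor targets lie well above 0 in both replicates, and Fos and Fosb do so in replicate 1 alone.

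In the hippocampus the vascular classes carried the most of nearly every member. The 10 genes together made up 10489 CPM of endothelial cells in DTRneg and 10056 CPM in DTRpos, 8698 and 8264 of pericytes, 3391 and 4173 of neuroblasts, 2074 and 1791 of oligodendrocyte precursors, 1539 and 1634 of mature oligodendrocytes, and 990.3 and 810.2 of astrocytes. The order was the same in both libraries, with 10.6-fold and 12.4-fold between the highest and the lowest class. No UMI of any member was found in 58.5% and 56.6% of astrocytes and in 12.5% of DTRneg neuroblasts.

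Fos stood at 4073 CPM in DTRneg and 3727 CPM in DTRpos for endothelial cells, 3811 and 3372 for pericytes, 1625 and 1914 for neuroblasts, 1075 and 893 for oligodendrocyte precursors, 1034 and 1049.6 for mature oligodendrocytes, and 693 and 576 for astrocytes. The intervals of endothelial cells and pericytes lay above those of all other classes in both libraries. Junb followed the same order at the ends, with 2489.7 CPM in DTRneg and 2493 CPM in DTRpos for endothelial cells, 2129 and 2394 for pericytes, 182 and 240.3 for neuroblasts, 225 and 186 for oligodendrocyte precursors, 113 and 129 for mature oligodendrocytes, and 66.2 and 54.8 for astrocytes. Its drop from pericytes to the next class was steeper than that of Fos. Fosb stood at 730.0 CPM in DTRneg and 892 CPM in DTRpos for endothelial cells, 678 and 1002 for pericytes, 94.7 and 187 for neuroblasts, 236 and 277 for oligodendrocyte precursors, 76.5 and 112 for mature oligodendrocytes, and 38.5 and 22.9 for astrocytes. Pericytes and endothelial cells changed places between the libraries for Fosb, with intervals that overlapped.

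Among Fos, Fosb, Junb, Dusp1 and Egr1, the gene for which neuroblasts came nearest to the vascular classes was Egr1, a marker of recent activity in neurons. It stood at 1403 CPM in DTRneg and 1409 CPM in DTRpos for endothelial cells, 1330.0 and 1099 for pericytes, 1201 and 1580.2 for neuroblasts, 396 and 339 for oligodendrocyte precursors, 174 and 220.0 for mature oligodendrocytes, and 63.5 and 45.5 for astrocytes. Neuroblasts were the third class in DTRneg and the first in DTRpos, and 74.4% and 85.1% of them had an Egr1 UMI, against 6.13% and 5.44% of astrocytes. The median astrocyte had fewer UMIs, at 4061 and 3307 against 6903 and 5713.5. Egr2, which in the nervous system is known for its part in peripheral myelination, was low throughout. It stood at 21.8 and 1.54 CPM in endothelial cells, 7.89 and 4.01 CPM in pericytes, 14.1 and 16.8 CPM in mature oligodendrocytes and 14.8 and 19.9 CPM in neuroblasts. Egr3 reached 54.4 and 66.0 CPM in endothelial cells and no more than 12.5 CPM elsewhere.

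Dusp1 stood at 1408 CPM in DTRneg and 1197 CPM in DTRpos for endothelial cells, 594 and 281 for pericytes, 244 and 203 for neuroblasts, 69.9 and 50.9 for oligodendrocyte precursors, 101 and 84.0 for mature oligodendrocytes, and 117 and 98.3 for astrocytes. Oligodendrocyte precursors were its lowest class in both libraries, whereas Fos, Fosb, Junb, Egr1 and Nr4a1 were lowest in astrocytes. Nr4a1 stood at 239 CPM in DTRneg and 175 CPM in DTRpos for endothelial cells, 121 and 92.2 for pericytes, 7.41 and 7.47 for neuroblasts, 48.0 and 29.5 for oligodendrocyte precursors, 10.5 and 8.20 for mature oligodendrocytes, and 6.37 and 5.22 for astrocytes. The precursors were thus the highest of the glial classes for Nr4a1 in both libraries. Nr4a2 stood at 65.3 and 93.6 CPM in endothelial cells and under 10 CPM in the other classes, and Nr4a3 stayed under 10 CPM in all 6 classes of both libraries. The T-cell receptor targets, set beside them for reference, summed to between 10.5 CPM in mature oligodendrocytes and 160.2 CPM in endothelial cells of DTRneg, whereas in meningeal T cells the lowest sum was 848 CPM. Tissue, protocol and Cell Ranger version differ between these libraries and cannot be told apart.

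The companion genes of the hippocampus showed how far this order was shared. Of the 4 most abundant other primary response genes, Jun stood at 4340.4 and 4014 CPM in endothelial cells of DTRneg and DTRpos and 467 and 430.2 CPM in astrocytes. Ier2 stood at 1367 and 1249.5 CPM against 33.0 and 16.2 CPM, and Jund at 2366 and 1994 against 400.4 and 334 CPM. The small GTPase gene Rhob was instead highest in mature oligodendrocytes, at 791 and 692 CPM. Of the 4 most abundant heat shock genes, Hspa1a (2232 and 1699 CPM in endothelial cells, 16.3 and 5.80 CPM in astrocytes) and Hspb1 (4435 and 4295 against 2.22 and 2.32 CPM) were high in the vascular classes. Hsp90aa1 was highest in mature oligodendrocytes, at 2277 and 2165 CPM, and Hspa8 in neuroblasts, at 1842 and 1482 CPM. These 4 heat shock genes thus did not share 1 order of classes. Of the T-cell receptor targets, Bhlhe40 reached 86.1 and 78.3 CPM in endothelial cells, and Nfatc1, Cd83 and Myc at most 35.6 CPM in any class.

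**Figure D4:**
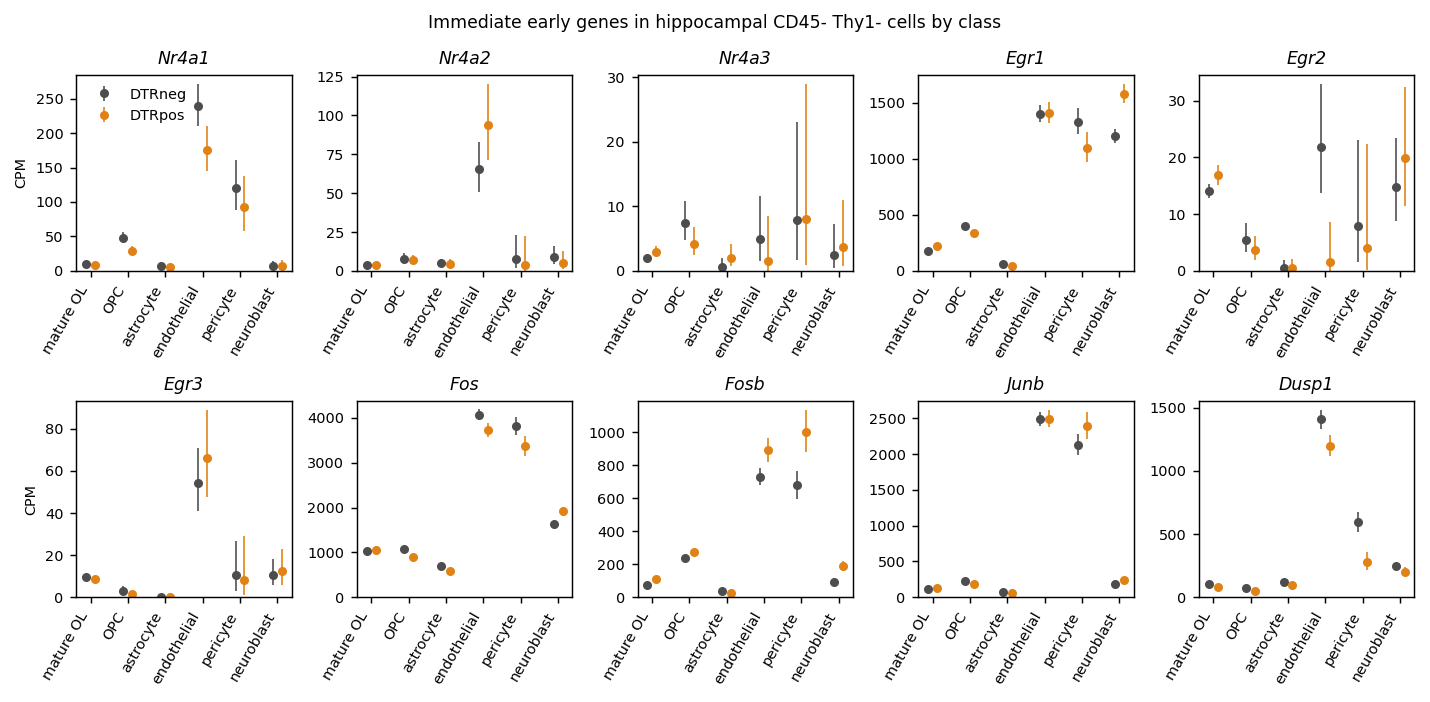
Level of each of the 10 genes (y axis, CPM) in the 6 hippocampal classes (x axis), grey for the DTRneg and orange for the DTRpos library, with exact 95% Poisson intervals. Endothelial cells and pericytes stand highest for Fos, Junb and Nr4a1 in both libraries, and neuroblasts join them for Egr1.

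Within each class, cells with a Fos UMI also held more of the other members. In these cells with a Fos UMI the other 9 members together exceeded their level in cells without by 3.26 (DTRneg) and 3.33 (DTRpos) on the log2 scale in mature oligodendrocytes, 3.18 and 3.37 in precursors, and 3.60 and 2.98 in astrocytes. The values were 2.95 and 2.96 in endothelial cells, 4.52 and 3.81 in pericytes, and 3.22 and 1.59 in neuroblasts. The T cells, without the tissue-gene cells, gave 0.52 and 0.41, whereas no such cells were left out in the hippocampus. Junb alone made up 872 and 1556 CPM of the 1535 and 2586 CPM of all 10 members in these T cells. The tissues are therefore not set against each other here, and the difference was not tested. The heat shock sum went with Fos mainly in the vascular classes, by 1.43 and 1.16 in endothelial cells and 1.80 and 1.38 in pericytes. In mature oligodendrocytes it differed by 0.17 and 0.17. The ratios were also taken with cells thinned to 2000 UMIs, for which cells with fewer UMIs were left out. The other 9 members then differed by 3.07 and 3.30 in mature oligodendrocytes and 3.07 and 2.01 in endothelial cells. Median depth was 1976.5 and 1597 UMIs in endothelial cells and 1984 and 1558.5 UMIs in pericytes, so most cells of these classes were dropped. Thinning there does not separate depth from the change of cells. The part of tissue handling was not tested.

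Between DTRpos and DTRneg, each a single library of pooled mice, the summed members differed in direction by class, and no test across animals is possible. The summed members differed by 0.09 (0.07 to 0.11) on the log2 scale in mature oligodendrocytes, -0.21 (-0.26 to -0.16) in precursors and -0.29 (-0.36 to -0.22) in astrocytes. In endothelial cells, pericytes and neuroblasts they differed by -0.06 (-0.11 to -0.02), -0.07 (-0.15 to 0.01) and 0.30 (0.23 to 0.37). The median difference of all genes at 20 CPM or more was 0.070 in mature oligodendrocytes, close to that of the summed members. In the other classes it lay between 0.024 and 0.041. DTRpos was thus lower in precursors and astrocytes and higher in neuroblasts, but with at least 4 markers required per cell the astrocyte value was 0.0067. Thinned to 2000 UMIs per cell, with shallower cells left out, the endothelial value was 0.10, the neuroblast value 0.41 and the oligodendrocyte value 0.17. Counting genes with 20 CPM or more in the higher library, a ratio beyond 2-fold was reached by 1 member in endothelial cells, Egr2 (lower, background 1.85% of 6393 genes), and 1 in pericytes, Dusp1 (lower, 7.2% of 7169 genes). None did so in mature oligodendrocytes (background 0.355% in either direction), precursors (0.414%), astrocytes (0.262%) or neuroblasts (3.04%). With every cell weighted equally neither was counted, since Egr2 (-3.97) then stood at 18.2 CPM in DTRneg, under the 20 CPM limit, and Dusp1 differed by -0.89. With cells thinned, 2 members were counted in neuroblasts, Fosb at 1.17 and Egr2 at 1.36, where 565 of 7090 genes were counted higher. The Egr2 ratio in endothelial cells rests on 22 UMIs in DTRneg and 1 in DTRpos, at -3.83 (-9.19 to -1.20).

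Dusp1 was lower in DTRpos in all 6 classes. The log2 difference was -0.46 (-0.74 to -0.18) in precursors, -0.27 (-0.35 to -0.19) in mature oligodendrocytes and -0.25 (-0.46 to -0.04) in astrocytes. In endothelial cells it differed by -0.23 (-0.36 to -0.11) and in pericytes by -1.08 (-1.49 to -0.69), from 594 to 281 CPM. The interval reached above 0 in neuroblasts alone, at -0.26 (-0.55 to 0.02). In the pericytes, 38.8% of DTRneg and 25.3% of DTRpos cells had a Dusp1 UMI, at median depths of 1984 and 1558.5 UMIs. Nr4a1, at 20 CPM or more in precursors, endothelial cells and pericytes, was lower in DTRpos in these as well, by -0.70 (-1.06 to -0.35), -0.45 (-0.79 to -0.12) and -0.39 (-1.18 to 0.36).

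Fosb went the other way. It was higher in DTRpos in 5 of 6 classes, by 0.98 (0.62 to 1.34) in neuroblasts, 0.56 (0.31 to 0.82) in pericytes, 0.55 (0.47 to 0.62) in mature oligodendrocytes, 0.29 (0.13 to 0.45) in endothelial cells and 0.23 (0.10 to 0.36) in precursors. In astrocytes it was lower, at -0.75 (-1.17 to -0.34), but with at least 4 markers required per cell the value was 0.06. The 5 richest cells held 43.9% and 38.0% of the astrocytes' Fosb UMIs and 27.0% and 40.7% of the neuroblasts'. Fos itself differed less, from -0.27 (-0.33 to -0.20) in precursors to 0.24 (0.14 to 0.33) in neuroblasts, and at 0.02 (-0.00 to 0.04) in mature oligodendrocytes. Fos and Fosb thus took opposite signs in precursors, endothelial cells and pericytes, although thinned Fos in endothelial cells was 0.044.

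Egr1 was higher in DTRpos in neuroblasts (0.40 (0.29 to 0.51)) and mature oligodendrocytes (0.34 (0.28 to 0.39)), and lower in astrocytes (-0.48 (-0.78 to -0.18)), pericytes (-0.28 (-0.49 to -0.06)) and precursors (-0.22 (-0.33 to -0.11)). Endothelial cells stood at 0.01 (-0.11 to 0.13). With at least 4 markers required, the astrocyte differences of Egr1, Fos and Junb were 0.092, 0.043 and 0.018, and that of Dusp1 was -0.26. Junb was higher in neuroblasts (0.40 (0.11 to 0.69)), mature oligodendrocytes (0.19 (0.12 to 0.26)) and pericytes (0.17 (0.01 to 0.32), but -0.080 with 4 markers), and lower in precursors (-0.28 (-0.43 to -0.13)). The sign of these differences varied with the class. The heat shock sum was lower in DTRpos in all 6 classes, between -0.46 in pericytes and -0.06 in precursors, and the other primary response sum differed by -0.26 in precursors to 0.02 in neuroblasts. Median depth was lower in DTRpos in all 6 classes, for instance 6320 against 7619 UMIs in mature oligodendrocytes. Thinned to 2000 UMIs, Dusp1 was lower in all 6 classes, between -0.16 in endothelial cells and -1.67 in pericytes, and Fosb differed by -0.92 in astrocytes to 1.17 in neuroblasts. Thinning left out the cells under 2000 UMIs, which were most of the endothelial cells and pericytes. The part of heat shock genes in these differences was not tested.

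**Figure D5:**
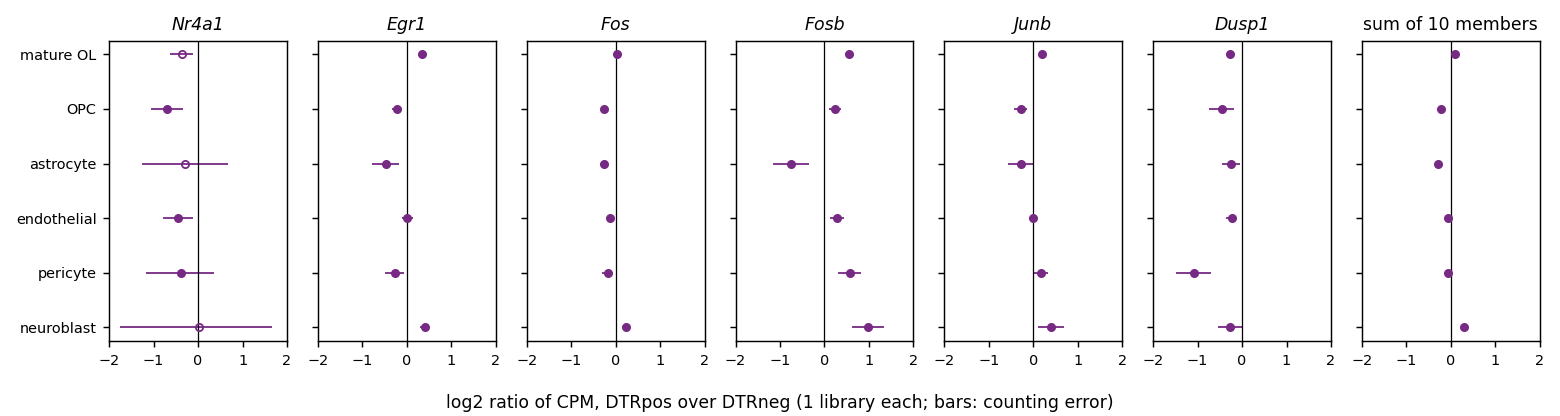
Log2 ratio of DTRpos over DTRneg (value axis) for Nr4a1, Egr1, Fos, Fosb, Junb, Dusp1 and the sum of all 10 genes in the 6 hippocampal classes, with 95% intervals from counting error; open points are under 20 CPM in both libraries. Dusp1 lies below 0 in all 6 classes and Fosb above 0 in all but astrocytes, with 1 library per genotype.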

How the data were processed

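The 8 samples comprise RNA, T-cell receptor and hashtag libraries of meningeal CD4+ T cells (replicates 1 and 2) and RNA libraries of the hippocampus (DTRneg and DTRpos). Each gene-by-barcode table, as deposited by the authors, holds raw UMI counts; the file headers name Cell Ranger 4.0.0 (replicate 1), 6.0.0 (replicate 2) and 6.1.0 (hippocampus), and the submitters' processing notes name Cell Ranger 6.1.0, Seurat and mm10. The labels' protocols name a 3' kit and the design text a 5' one for the T cells. The 10 genes and the gene lists were chosen with earlier results of these data known.

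Barcodes with at least 500 genes and under 10% (meninges) or 15% (hippocampus) mitochondrial UMIs were kept. Meningeal cells needed at least 10 UMIs of their hashtag (7 or 10) and 5 times the next one. T cells had a UMI of Cd3d, Cd3e or Cd3g, none of Cd8a or Cd8b1 and fewer than 2 genes of other lineages; the marker genes of the states were left out of the tests, and 1 of them is not reported here. Hippocampal classes needed at least 3 of 5 markers and 2 more than any other class, and cells called doublets by Scrublet in scanpy 1.11.5 (3.41% of DTRneg, 2.70% of DTRpos) were removed. In the T cells doublets were limited by the hashtag and lineage rules alone.

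Counts were summed per state and replicate and tested with edgeR 4.0.16 (quasi-likelihood, filterByExpr, TMM, Benjamini-Hochberg, threshold 0.05; R 4.3.3), with DESeq2 1.42.0 as an alternative. The scripts were tested on simulated data. Both states compared in a replicate were read from its single library, and deviations from the group means correlated within replicates over 8042 genes (r from 0.20 to 0.83 for all 10 pairs of states), so the replicate number pairs them and the blocked fit is given beside the unblocked one. Nothing in the labels says how many animals stand behind a meningeal replicate, so p-values measure only the spread between these samples. Leaving out the tissue-gene cells was added after the data were seen. Hippocampal ratios have no replicate and exact binomial intervals. Columns of other samples used: 0. Named were all 10 members, the 4 most abundant genes of each companion list with any that passed, and the 5 genes most alike to Fos (hippocampus) and Nr4a1 (meninges) by Pearson r of log2(CPM + 10).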

Additional observations from a re-analysis of the deposited data

Results flagged for a closer look

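In meningeal replicate 1, 46 T cells drew at least 0.5% of their UMIs from epithelial, mural, endothelial and fibroblast genes, against 6 in replicate 2, and held most of the Fos UMIs of that replicate. Fosb differed between DTRpos and DTRneg by 0.98 on the log2 scale in neuroblasts and by -0.75 in astrocytes, opposite signs in classes of the same libraries. The sum of all 10 genes differed by 0.30 in neuroblasts and -0.29 in astrocytes. With at least 4 markers required per cell, the astrocyte values were 0.060 for Fosb and 0.0067 for the sum, so the opposite signs were lost. With 1 library per genotype these differences between classes were not tested.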

How the results depend on the processing

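Counts of genes called are given for Th1- against naive-marked, Tfh- against Th1-marked and Foxp3- against Th1-marked cells, where the unblocked fit of all cells called 10, 7 and 1. With the replicate block, which the shared libraries pair, they were 616, 204 and 369 (members 1, 1 and 2), and with the block and without the tissue-gene cells 642, 245 and 421 (members 2, 5 and 4). Without those cells alone they were 54, 36 and 16, with DESeq2 140, 85 and 58, and with no filter on low counts 272, 204 and 171 (1 member, Egr2, in the Tfh-marked comparison). A hashtag limit of 2 times the next gave 1, 7 and 0, and of 20 times 21, 11 and 8. Cells with exactly 1 TRB chain gave 38, 20 and 7. Thinning to 1000 UMIs gave 39 and 18 in the first and last comparison, leaving out NK-receptor cells 30 and 3 in the Tfh- and Foxp3-marked ones, and Tbx21 alone 5 and 4 in the first and second.

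The member differences that changed sign were not called in the unblocked fit. Foxp3- against Th1-marked, Fos became 0.023 with the block, 0.42 without the tissue-gene cells with or without the block, 0.43 at the lower hashtag limit, 0.26 thinned, 0.010 with 1 TRB chain and 0.12 without NK-receptor cells. Fosb became 0.63 without the tissue-gene cells, 0.58 with the block as well, 0.55 at the lower hashtag limit and 0.31 without NK-receptor cells. Egr1 and Egr2 became 0.21 and 0.13 without the tissue-gene cells, 0.21 and 0.068 with the block as well, 0.39 and 0.32 at the higher hashtag limit, 0.084 and 0.67 thinned, 0.43 and 0.26 with 1 TRB chain and 0.13 and 0.39 without NK-receptor cells. Nr4a3 became -0.053 with 1 TRB chain. Th1- against naive-marked, Egr1 and Fosb became -0.24 and -0.33 at the lower and -0.073 and -0.047 at the higher hashtag limit, -0.0066 and -0.34 without NK-receptor cells and -0.086 and -0.027 without the tissue-gene cells, with Egr1 at -0.081 with the block as well. Nr4a1 became -0.59 thinned, and Nr4a2 -0.021 at the lower hashtag limit and -0.28 with 1 TRB chain. Tfh- against Th1-marked, Egr1 became -0.40 thinned and Junb 0.078 at the higher hashtag limit, 0.10 with 1 TRB chain and 0.080 without NK-receptor cells. With 1 replicate left, Egr1 ranged from -0.72 to 1.78 and Egr2 from -0.88 to 3.86 there. Over the 12 fits, Junb, Dusp1 and Nr4a1 remained higher in Foxp3- than Th1-marked cells in all 12, but were called in 2, 2 and 1 of them. Nr4a2 was higher in all 11 fits that held it and Egr3 lower in all 10, and neither was called. The fits share the same replicates and many of the same cells, so a kept sign is not repeated evidence.

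In the hippocampus the summed members differed by 0.13 in mature oligodendrocytes with cells weighted equally and 0.17 thinned to 2000 UMIs, and by 0.41 thinned in neuroblasts. Astrocytes gave -0.19 with doublets kept, 0.0067 with at least 4 markers and -0.11 without the 5 richest cells, endothelial cells -0.0070 at 1000 genes and 0.10 thinned, and pericytes -0.20 with 4 markers. Past 2-fold stood 0 members in endothelial cells and pericytes with cells weighted equally, against 380 of 6552 and 1200 of 7003 genes. In neuroblasts 1 member stood higher past 2-fold at 1000 genes, 1 with 4 markers and 2 thinned. Of all genes, 115 of 6770, 153 of 6739 and 565 of 7090 did so in these settings. The cause of these changes was not tested.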

Other observations

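Hippocampal classes too small for a comparison also carried the genes. Fibroblast-like cells (41 in DTRneg and 32 in DTRpos) had Fos at 3041 and 4165 CPM and Junb at 1949 and 3132 CPM, with 73.3% and 83.9% of the Fos UMIs in the 5 richest cells. Choroid plexus cells (122 and 23) had 256 Fos UMIs in DTRneg and 1 in DTRpos, or 403 and 9.91 CPM, and no Fosb UMI in either library.

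Over the 12 sums of hippocampal class and library, the genes whose log2(CPM + 10) was most like that of Fos among 3649 genes of at least 50 CPM were Sertad1 (Pearson r 0.98), St8sia4 (0.96), Cyb5r3 (0.96), Tpm4 (0.96) and Cbfa2t3 (0.95). The points share 2 libraries and the strong contrast of vascular cells with the rest. Over the 10 sums of T-cell state and replicate, those most like Nr4a1 were Psmc6 (0.93), Psmd1 (0.93), Tspan3 (0.93), Plgrkt (0.92) and Mdp1 (0.91) among 2958 genes. Without the tissue-gene cells they were H2az1 (0.96), Plgrkt (0.95), Manf (0.94), Psma6 (0.94) and Mdp1 (0.93) among 2928 genes, so 2 of the 5 names were shared.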
